A study of Mus musculus with 12 samples.

Results

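Colon tissue was compared between 3 DSS_ImP libraries (label DSS+ImP, replicates 2, 3 and 4) and 3 ImP libraries (label ImP, replicates 1, 3 and 4), which are 6 of the 12 libraries of the series. All were made from colon of wild type mice, and ImP is in the label of both groups, so the labels separate them by DSS. DSS, dextran sulfate sodium, is a polymer given to mice to injure the colon lining and provoke colitis. The labels give no meaning for ImP, no strain, age or dose, and no statement that libraries came from separate animals, so a p-value here reflects the spread among libraries, which may be technical. Colitis with or without ImP for 7 days is the stated setting. The 7 days of ImP are given for the DSS_ImP libraries, and no duration is given for the ImP libraries. Angelica dahurica polysaccharides appear in the series title but in no label of a library. The other 6 libraries, labelled DSS (replicates 2, 3 and 5) and null (replicates 1, 4 and 5, here Ctrl), gave the same DSS contrast without ImP.

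All genes of the table were considered. Of 35841 genes, 22279 passed a filter on low counts and were tested. Levels are CPM, counts scaled to library size after TMM normalisation, and the 3 values of a gene stand in the order of the replicate numbers just given. A log2 change is DSS_ImP over ImP with its standard error, and the words rose and fell are kept for genes that passed edgeR's quasi-likelihood test with an adjusted p under 0.05 (Benjamini-Hochberg, over all 22279 genes). Total counts were 62410247 to 67406087 in the DSS_ImP libraries and 63479173 to 66312327 in the ImP libraries. A gene with 0 counts in all 3 libraries of a group was given a floor of 12 counts over the group, and its fold change is then a lower limit. List members named as called were mostly chosen for the smallest p. That choice favours groups that do not overlap, so separation of the groups is no finding in any list below.

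The colon is lined by absorptive colonocytes, mucus-making goblet cells and rarer secretory cells, which hold bacteria away from the tissue below. When that lining is damaged, resident cells release interleukin-1 and chemokines of the CXC family, neutrophils and monocytes enter from the blood, and fibroblasts and vessels remodel the wall. Interferons, made in part in response to resident bacteria and viruses, keep a separate set of antiviral and antigen-presenting genes active in the intact colon.

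In DSS_ImP colon, most tested markers of neutrophils, members of the interleukin-1 family and genes of matrix remodelling were called above their levels in ImP colon, and most type I interferon and xenobiotic metabolism genes were called below. Without ImP 1 the xenobiotic metabolism genes called below were 17 of 37. The gene lists named here were chosen with earlier results of these data known. The test called 2079 genes (9.33% of those tested), of which 982 rose (4.41%) and 1097 fell (4.92%). A difference of at least 2-fold was seen in 583 of the genes that rose and 339 of those that fell. The median log2 change of all tested genes was 0.0041. Calls that held in each of the 12 fits that left out 1 library numbered 447 upward (2.01%) and 440 downward (1.97%). Rises numbered 486 without DSS_ImP 3, 607 without ImP 3 and 638 without ImP 1, and falls 511 without DSS_ImP 3 and 691 without DSS_ImP 2. The total was 997 without DSS_ImP 3, 1376 without DSS_ImP 2 and 1356 without ImP 3. Rises made up 47.2% of the calls, against 70.9% with limma on log2(FPKM + 1) and 69.2% on log2(FPKM + 0.1), where the median of all genes was 0.10 and 0.13.

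Markers of colon identity were present in all 6 libraries. The homeobox gene Cdx1 lay at 83.5 to 95.1 FPKM (fragments scaled to transcript length and library size) in DSS_ImP and 84.8 to 104 FPKM in ImP, and the epithelial adhesion molecule Epcam at 440 to 532 FPKM in DSS_ImP and 559 to 616 FPKM in ImP. Mitochondrial transcripts took 4.67% to 5.14% of counts in DSS_ImP and 5.40% to 6.01% in ImP. Acinar transcripts of pancreas were more often found in ImP: Ctrb1, a chymotrypsinogen of acinar cells, had 0, 0 and 0 CPM in DSS_ImP and 4.37, 5.2 and 6.1 CPM in ImP, and of 25 acinar genes 9 to 12 had counts in a DSS_ImP library and 20 to 22 in an ImP library. That number also varied within the other groups, at 10 to 21 in a DSS library and 10 to 19 in a Ctrl library. Of the 20 acinar genes that were tested 8 fell and 1 rose, with 0 falling without DSS_ImP 2, DSS_ImP 3, ImP 1 or ImP 4. A difference in collection or handling cannot be told apart from that of DSS in these 6 libraries. Globins were higher in DSS_ImP than in ImP: 5 of 7 erythroid genes rose, with their sum at 106 to 218 CPM in DSS_ImP and 28.7 to 50.1 CPM in ImP. The sum was 83.7 to 272 CPM in DSS and 91.2 to 136 CPM in Ctrl, so ImP was the lowest of the 4 groups. The part of blood in the other results was not tested.

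**Figure D1:**
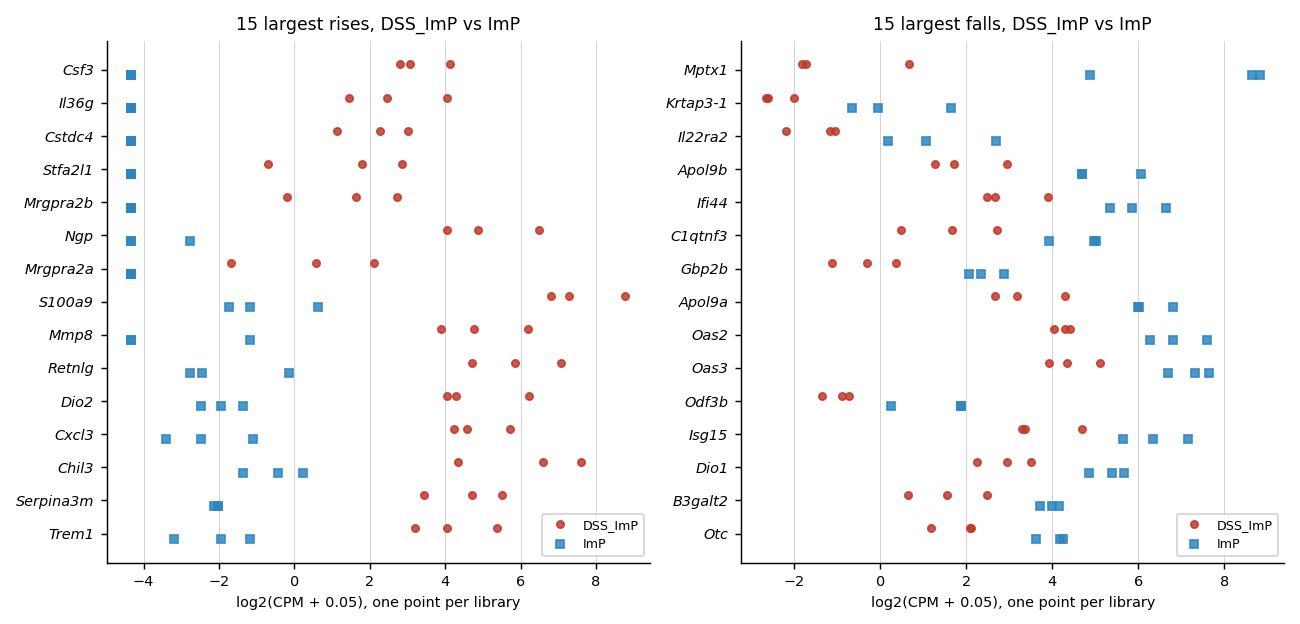
Levels of the 15 genes with the largest rises (left) and falls (right) as log2(CPM + 0.05) with 1 point for each DSS_ImP (circle) and ImP (square) library. The genes were chosen to keep their call whichever library was left out, to have groups that do not overlap and to reach 1 FPKM, so their separation is no finding. Csf3, Il36g, Cstdc4, Stfa2l1, Mrgpra2a and Mrgpra2b have 0 counts in all ImP libraries.

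Neutrophil markers had the highest median of the 40 gene lists examined, which were chosen with earlier results of these data known. Of 29 markers, 25 passed the filter, 20 rose and 0 fell, with a median log2 change of 5.72, or 4.98 with the 5 genes at 0 in ImP set to their lower limit. With the stricter filter of 1 CPM in 6 libraries, which takes members out of the test, 10 rose. Members can pass the main filter through the DSS_ImP libraries alone, so the count describes those that passed. In 22 of them all 3 DSS_ImP libraries lay above all 3 ImP libraries, a pattern found in 14.4% of all tested genes. In bulk tissue, more cells of a type and more RNA per cell cannot be told apart. S100a9 (ENSMUSG00000056071), a subunit of the calprotectin that neutrophils carry, had 157, 440.3 and 113 CPM in DSS_ImP and 1.5, 0.39 and 0.253 CPM in ImP. The DSS_ImP libraries stood far above the ImP libraries, with DSS_ImP 3 the highest (log2 change 8.38 ± 0.83, adjusted p = 0.000306). Ngp (ENSMUSG00000032484), a protein of neutrophil granules, was at 29.1, 89.3 and 16.5 CPM in DSS_ImP and 0.0968, 0 and 0 CPM in ImP (log2 change 10.39 ± 1.0). Counts of Ngp were found in 1 of the 3 ImP libraries and in every DSS_ImP library.

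Proteases and receptors of neutrophils moved the same way. Mmp9, a gelatinase of their granules, had 23.3, 41.5 and 16 CPM in DSS_ImP and 0.935, 0.894 and 1.33 CPM in ImP (log2 change 4.67 ± 0.48, adjusted p = 0.000352). Mmp8, the neutrophil collagenase, had 27.1, 73.6 and 14.8 CPM in DSS_ImP and 0, 0.39 and 0 CPM in ImP. Retnlg, a resistin-like protein of mouse neutrophils, had 57.8, 134 and 26.3 CPM in DSS_ImP and 0.855, 0.0975 and 0.134 CPM in ImP. For all of these the groups were separate, which the choice of Mmp8 and Retnlg required. The lowest of the DSS_ImP values was that of DSS_ImP 4. The C-type lectin receptor Clec4d rose by 5.72 ± 0.63 and the activating receptor Trem1 by 6.67 ± 0.96 on the log2 scale. Cxcr2, the receptor for the CXC chemokines, was at 7.16, 23.8 and 7.98 CPM in DSS_ImP and 0.516, 0 and 0 CPM in ImP (adjusted p = 0.00551).

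Stefins and Mrgpra2 receptors, mouse families expressed by neutrophils, supplied the 5 listed genes with 0 counts in every ImP library (Stfa2, Stfa2l1, Stfa3, Mrgpra2a and Mrgpra2b). Mrgpra2b had 3.07, 6.59 and 0.831 CPM in DSS_ImP and 0 counts in ImP, at least 55.6-fold higher against the floor. Stfa2l1 was at least 59.6-fold and the related Cstdc4, outside the list, at least 78.9-fold higher on the same basis. Members of these families are close copies of one another, so the division of reads among them is uncertain.

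Ly6g, the surface protein by which mouse neutrophils are usually sorted, did not follow its list. It had 169, 402 and 165 CPM in DSS_ImP and 241, 72 and 63.1 CPM in ImP, with the ranges overlapping because of ImP 1 (log2 change 0.97 ± 0.71, adjusted p = 0.483). In the groups without ImP it had 106, 69.1 and 34.8 CPM in DSS and 0.821, 1.8 and 7.78 CPM in Ctrl. Ltf, lactoferrin, likewise overlapped, at 5.92 to 25.3 CPM in DSS_ImP and 0.611 to 9.61 CPM in ImP (adjusted p = 0.232). The summed level of the whole list was 505 to 1826 CPM in DSS_ImP and 75.8 to 270 CPM in ImP.

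The signals that call and mature neutrophils rose with them. Of 11 chemoattractants and colony-stimulating factors 9 passed the filter and 5 rose, with a median log2 change of 3.15. Csf3 (ENSMUSG00000038067), granulocyte colony-stimulating factor, had 6.89, 17.5 and 8.31 CPM in DSS_ImP and 0 counts in every ImP library, at least 173-fold higher against the floor. Its fitted log2 change was 12.42 ± 1.2 (adjusted p = 0.000438), and the 3 DSS_ImP libraries all held it. Cxcl2 (ENSMUSG00000058427), a ligand of Cxcr2, had 68, 157 and 81.3 CPM in DSS_ImP and 1.63, 1.17 and 0.268 CPM in ImP (log2 change 6.65 ± 0.67). The related Cxcl3 had 23.8, 52.9 and 18.7 CPM in DSS_ImP and 0.419, 0.13 and 0.0447 CPM in ImP (log2 change 7.33 ± 0.70). Both were separate between the groups, which the choice of Cxcl3 required, and DSS_ImP 3 was again the highest. Cxcl5, which epithelial cells make, had 33, 76 and 44 CPM in DSS_ImP and 7.4, 1.79 and 0.611 CPM in ImP, so ImP 1 stood above the other ImP libraries (log2 change 3.97 ± 0.73). Cxcl1 rose by 3.15 ± 0.70, a call lost without DSS_ImP 3 or without ImP 3. Csf1 and Csf2, the factors for macrophages and for granulocytes and macrophages, were not called (adjusted p = 0.917 and 0.676).

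The promoters of Cxcl1, Cxcl2 and Cxcl3, which lie near one another on mouse chromosome 5, are shown because all 3 rose and hold the same run of bases. The window runs from 250 bases before to 50 bases after the start of the gene (RefSeq, GRCm38.p6), at chr5:90890995-90891294, chr5:90903649-90903948 and chr5:90785851-90786150, all on the plus strand. Capitals mark matches to an NF-kB-type motif, which is GGGA, any 2 bases and TTCC, searched on both strands (GGAA, any 2 bases and TCCC on the other). In each promoter a match on one strand and a match on the other overlap in 1 run. NF-kB is the transcription factor through which interleukin-1 and tumour necrosis factor act on many chemokine genes.
Cxcl1: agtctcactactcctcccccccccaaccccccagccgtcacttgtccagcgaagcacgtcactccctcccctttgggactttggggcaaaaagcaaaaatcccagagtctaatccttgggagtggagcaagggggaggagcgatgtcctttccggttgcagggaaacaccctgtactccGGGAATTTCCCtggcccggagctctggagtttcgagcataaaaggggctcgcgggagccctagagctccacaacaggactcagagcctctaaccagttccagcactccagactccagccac
Cxcl2: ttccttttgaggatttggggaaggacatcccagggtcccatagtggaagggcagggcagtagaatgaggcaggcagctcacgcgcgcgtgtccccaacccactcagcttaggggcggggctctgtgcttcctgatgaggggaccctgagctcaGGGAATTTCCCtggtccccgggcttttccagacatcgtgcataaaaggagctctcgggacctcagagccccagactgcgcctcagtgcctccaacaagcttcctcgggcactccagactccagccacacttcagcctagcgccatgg
Cxcl3: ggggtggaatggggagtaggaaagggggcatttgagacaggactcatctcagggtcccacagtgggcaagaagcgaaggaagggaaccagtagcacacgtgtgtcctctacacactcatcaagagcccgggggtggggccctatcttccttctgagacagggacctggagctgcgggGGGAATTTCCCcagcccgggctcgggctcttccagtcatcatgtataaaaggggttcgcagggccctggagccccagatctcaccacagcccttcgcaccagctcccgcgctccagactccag
Within the run, the match nearer the gene starts 70 bases before the start of Cxcl1, 96 before that of Cxcl2 and 72 before that of Cxcl3. Of 7 chemoattractant genes matched to the RefSeq table by symbol 4 hold the motif (57.1%), and of all 27025 genes with a promoter in it 1.63% do (1.47% of 32851 windows). Of 13 matched interleukin-1 family genes 0 hold it. In the interferon gamma and MHC class II list 3 of 18 matched genes hold it (16.7%). The remaining chemoattractant gene that holds it, Csf1, was not called. Among called genes it was in 2.28% of 702 that rose and in 2.04% of 832 that fell. A match is a description of the letters and not evidence of binding.

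Interleukin-1 genes rose at the level of ligands and receptors. Of 19 family members 15 passed the filter, 9 rose and 1 fell, with a median log2 change of 1.76. Il1b (ENSMUSG00000027398), the main secreted ligand, had 97.8, 213 and 109 CPM in DSS_ImP and 5.11, 4.86 and 5.84 CPM in ImP. The ImP libraries lay close together and every DSS_ImP library was far above them (log2 change 4.73 ± 0.47, adjusted p = 0.000306). Il1a had 17, 40.1 and 19 CPM in DSS_ImP and 0.194, 0.553 and 1.52 CPM in ImP (adjusted p = 0.00536). Il36g, a ligand of epithelia and phagocytes, had 5.42, 16.5 and 2.68 CPM in DSS_ImP and 0 counts in ImP, at least 130-fold higher. Il33, an alarmin held in nuclei of stromal cells, had 19.4, 47.1 and 33.5 CPM in DSS_ImP and 4.97, 4.55 and 6.19 CPM in ImP (log2 change 2.67 ± 0.36). Of the receptors, the signalling receptor Il1r1 rose by 1.76 ± 0.23 and the decoy receptor Il1r2, also abundant on neutrophils, by 4.92 ± 0.57. Il18, an epithelial family member, overlapped at 40.0 to 74.8 CPM in DSS_ImP and 30.0 to 78.3 CPM in ImP (log2 change 0.01 ± 0.31, adjusted p = 0.994).

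Cytokines that signal through the gp130 receptor rose in a smaller share of their list. Of 18 genes of the interleukin-6 family and STAT3 7 rose and 0 fell, with a median log2 change of 0.71. Il11 (ENSMUSG00000004371), a fibroblast cytokine, had 14, 47.2 and 33 CPM in DSS_ImP and 0.468, 0.813 and 0.328 CPM in ImP (log2 change 5.87 ± 0.57, adjusted p = 0.000306). Il6 had 2.52, 7.15 and 11.7 CPM in DSS_ImP and 0.113, 0 and 0.119 CPM in ImP (log2 change 6.47 ± 1.24). Oncostatin M (Osm), made by neutrophils and macrophages, had 7.95, 19.8 and 7.17 CPM in DSS_ImP and 0.323, 0.13 and 0.283 CPM in ImP. Its receptor Osmr had 45.5, 71 and 42.8 CPM in DSS_ImP and 25.9, 16.9 and 19.3 CPM in ImP (log2 change 1.36 ± 0.21). Ligand and receptor were each separate between the groups, which a choice by small p favours. Stat3, the transcription factor downstream, and its feedback inhibitor Socs3 missed the threshold (log2 changes 0.37 ± 0.12 and 1.05 ± 0.34, adjusted p = 0.0858 and 0.0759).

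No rise was called in the interleukin-17 and interleukin-22 axis. Of its 18 tested genes edgeR called 0 upward and 3 downward, with a median log2 change of -0.38. At an unadjusted p under 0.05 edgeR had 2 upward, DESeq2 and limma called 0 upward, and 1 was called without ImP 1. Il17a was at 0.252, 0.458 and 0.969 CPM in DSS_ImP and 0.161, 0 and 0.0596 CPM in ImP (adjusted p = 0.172). Il22ra2, the soluble binding protein of interleukin-22, had 0.398, 0.429 and 0.169 CPM in DSS_ImP and 2.05, 1.07 and 6.38 CPM in ImP (log2 change -3.24 ± 0.62, adjusted p = 0.00684). Reg3g, an antibacterial lectin and target of interleukin-22, ranged over 206 to 1713 CPM in DSS_ImP and 249 to 1939.7 CPM in ImP. The spread within each group of Reg3g was wider than the difference between them (adjusted p = 0.802).

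Of 22 genes of the TNF and NF-kB pathway 6 rose and 0 fell, with a median of 0.44. Tnf itself was at 9.71, 12.5 and 7.51 CPM in DSS_ImP and 8.39, 5.82 and 6.45 CPM in ImP (adjusted p = 0.164). Called members included Ptgs2 and Vcam1, which TNF is known to induce. Ptgs2, the inducible cyclooxygenase, had 38.8, 74.7 and 111 CPM in DSS_ImP and 5.82, 8.14 and 6.51 CPM in ImP (log2 change 3.46 ± 0.48). Vcam1, an adhesion molecule of activated endothelium, had 102, 93.2 and 49.8 CPM in DSS_ImP and 31.6, 17.6 and 32.9 CPM in ImP (log2 change 1.58 ± 0.29). The receptor Tnfrsf1b rose by 0.80 ± 0.14 and the inducible protein Tnfaip2 by 1.47 ± 0.22.

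Among CC chemokines 5 of 19 rose and 2 fell. Ccl2, which draws monocytes, had 11.2, 16.3 and 8.25 CPM in DSS_ImP and 2.6, 2.32 and 2.86 CPM in ImP (log2 change 2.20 ± 0.27, adjusted p = 0.00068). Ccl3 and Ccl4, made by activated phagocytes, rose by 4.02 ± 0.53 and 3.98 ± 0.62, and the eosinophil chemokine Ccl11 by 2.11 ± 0.27. Ccl5, made by T and NK cells, went the other way, with 14.7, 14.7 and 14.8 CPM in DSS_ImP and 29.7, 27.2 and 34.6 CPM in ImP (log2 change -1.05 ± 0.17). The 3 DSS_ImP values of Ccl5 were nearly equal and all below the lowest ImP value. The chemokines that interferon gamma induces, Cxcl9 and Cxcl10, were not called (log2 changes -1.28 ± 0.42 and -0.74 ± 0.40, adjusted p = 0.0793 and 0.304).

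Markers of monocytes and macrophages rose in 13 of 25 genes and fell in 1, with a median log2 change of 0.98. Without DSS_ImP 3 the rises were 9. Itgam, an integrin of myeloid cells that neutrophils also carry, had 90.4, 145 and 63.8 CPM in DSS_ImP and 14.5, 20.4 and 18.5 CPM in ImP (log2 change 2.48 ± 0.28, adjusted p = 0.000438). Arg1, arginase of wound-type macrophages, had 16.8, 19.1 and 6.98 CPM in DSS_ImP and 0.71, 1.3 and 0.939 CPM in ImP (log2 change 3.86 ± 0.40). Each of these ImP values of Arg1 was also below every Ctrl value, which are given with the other contrast. Chil3, a chitinase-like protein of macrophages and neutrophils, had 96.9, 196 and 20.1 CPM in DSS_ImP and 1.13, 0.341 and 0.686 CPM in ImP (log2 change 7.18 ± 0.90). The 3 genes were separate between the groups, which the choice of Chil3 required, with DSS_ImP 4 the lowest of its group for each. Spp1, osteopontin, rose by 5.10 ± 0.65 and the immunoglobulin receptor Fcgr3 by 1.54 ± 0.25. Pan-macrophage genes had smaller log2 changes: Csf1r, the receptor that macrophages need, had a log2 change of 0.52 ± 0.19 and Adgre1, which encodes F4/80, of 0.37 ± 0.25, and neither was called (adjusted p = 0.118 and 0.448).

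Complement and acute phase genes rose in 9 of 21 and fell in 0, or rose in 5 without DSS_ImP 3. C3 (ENSMUSG00000024164), the central complement protein, had 635, 893 and 568 CPM in DSS_ImP and 149, 139.9 and 159 CPM in ImP, and the groups were far apart (log2 change 2.23 ± 0.25). Saa3, a serum amyloid made in inflamed tissue, had 293, 799.6 and 272 CPM in DSS_ImP and 15.7, 40.1 and 4.8 CPM in ImP (log2 change 4.49 ± 0.66). Haptoglobin, Hp, which neutrophil precursors also store, rose by 5.07 ± 0.55, ceruloplasmin, Cp, by 2.32 ± 0.35 and properdin, Cfp, by 1.32 ± 0.24. Albumin, the defining transcript of liver, was at 0 to 0.0928 CPM in DSS_ImP and 0.403 to 1.1 CPM in ImP.

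**Figure D2:**
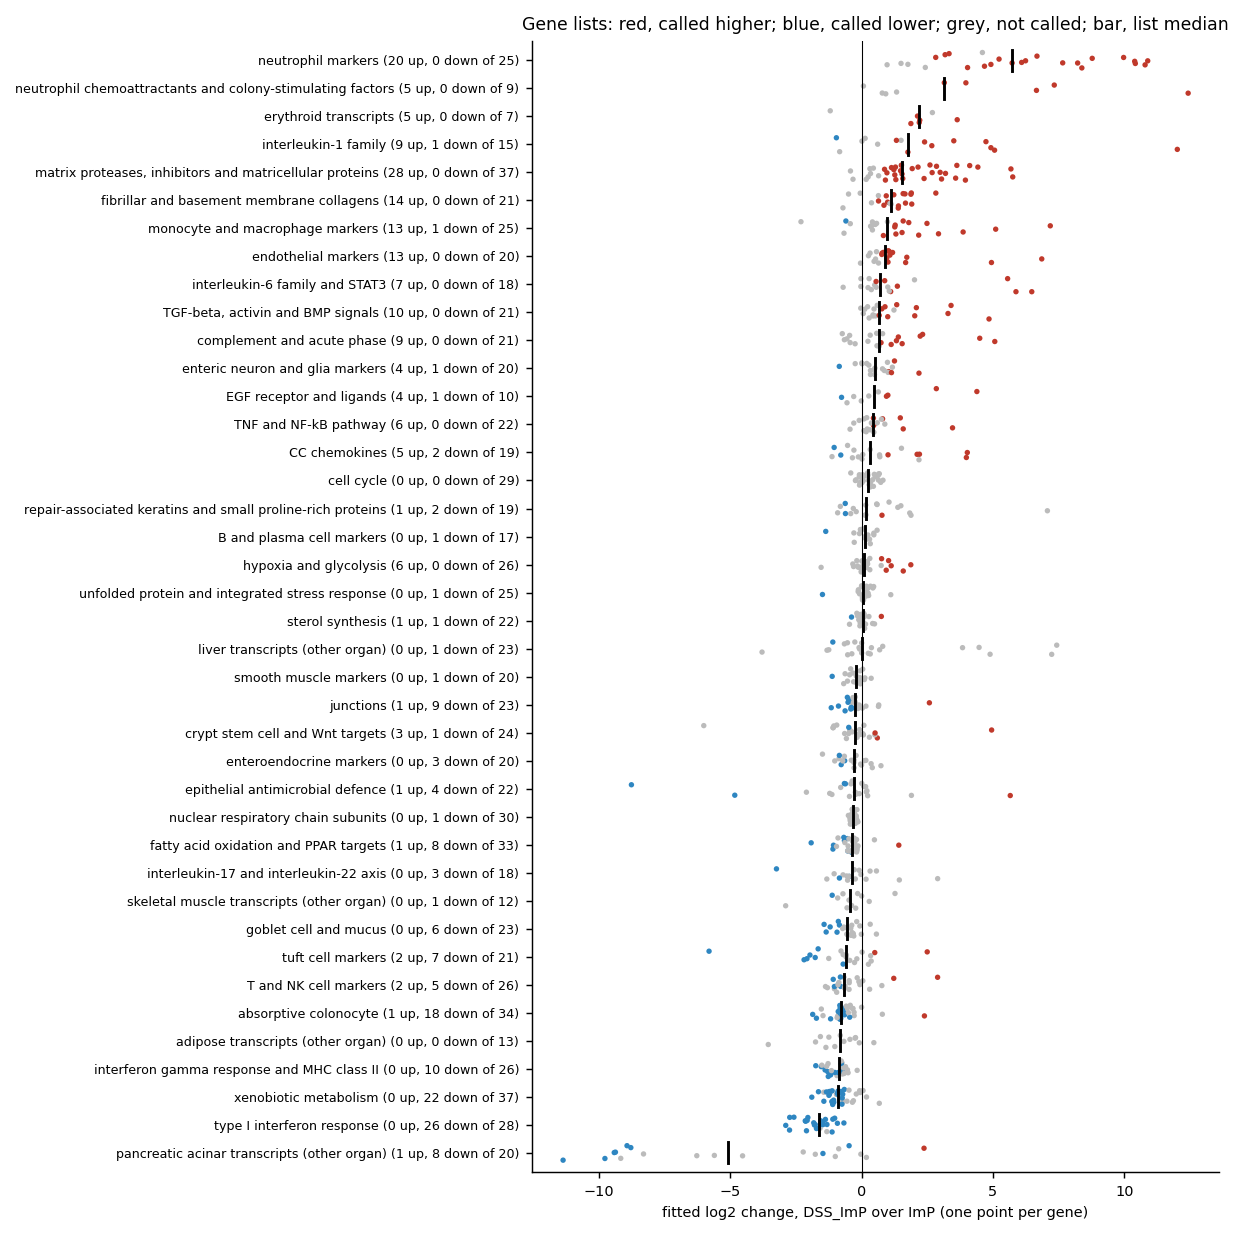
Fitted log2 change of DSS_ImP over ImP for the tested members of 40 gene lists, 1 point for each gene, with lists ordered by their median (bar). Members of the neutrophil list reach from 0.97 to 10.89, all 28 members of the type I interferon list lie below 0, and the cell cycle list spans -0.42 to 0.81 with no call.

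Type I interferon target genes were lower in DSS_ImP colon. All 28 listed genes had negative log2 changes, 26 fell and the median was -1.62, with 22 called without DSS_ImP 3. Irf7 (ENSMUSG00000025498), the regulator that amplifies the response, had 110.2, 65.3 and 77.3 CPM in DSS_ImP and 302, 306 and 456 CPM in ImP (log2 change -2.07 ± 0.25, adjusted p = 0.000638). Isg15 (ENSMUSG00000035692), a ubiquitin-like modifier, had 25.8, 10.2 and 9.69 CPM in DSS_ImP and 81.4, 49.9 and 142 CPM in ImP (log2 change -2.58 ± 0.43). Oas1a (ENSMUSG00000052776), a synthetase that senses double-stranded RNA, had 88.3, 56.8 and 70.5 CPM in DSS_ImP and 206, 189 and 242 CPM in ImP (log2 change -1.56 ± 0.18). For each of them every DSS_ImP library was below every ImP library, a pattern found in 13.8% of all tested genes, and ImP 4 was the highest. The choice of Isg15 required that pattern. Oas2 fell by 2.75 and Oas3 fell by 2.74 on the log2 scale. The RNA sensor Ifih1 had 84.6, 82.8 and 72.2 CPM in DSS_ImP and 156, 133 and 165 CPM in ImP, and the nucleic acid sensor Zbp1 had 68.4, 60.7 and 50.8 CPM in DSS_ImP and 162, 132 and 209.7 CPM in ImP. Ifi44 of the list fell by 2.89 on the log2 scale. Apol9a and Apol9b, interferon-induced genes outside the list, were with it among the 15 largest falls, at log2 changes of -2.77 ± 0.43 and -3.15 ± 0.51.

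Promoters of Isg15, Oas1a and Ifit3 are shown because they are among the list's members that hold matches to an interferon-type motif, which are in capitals. The motif is GAAA, any 2 bases and GAAA, searched on both strands (TTTC, any 2 bases and TTTC on the other), and matches may overlap. The windows are those of RefSeq on GRCm38.p6: chr4:156200769-156201068 on the minus strand, chr5:120907476-120907775 on the minus strand and chr19:34583279-34583578 on the plus strand. Each is written 5′ to 3′ along its gene.
Isg15: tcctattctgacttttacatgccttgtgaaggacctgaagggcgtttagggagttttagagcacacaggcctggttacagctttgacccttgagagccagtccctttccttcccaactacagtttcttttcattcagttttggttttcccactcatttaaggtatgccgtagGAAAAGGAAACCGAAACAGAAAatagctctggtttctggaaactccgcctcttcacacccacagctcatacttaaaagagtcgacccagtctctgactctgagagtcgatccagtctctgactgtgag
Oas1a: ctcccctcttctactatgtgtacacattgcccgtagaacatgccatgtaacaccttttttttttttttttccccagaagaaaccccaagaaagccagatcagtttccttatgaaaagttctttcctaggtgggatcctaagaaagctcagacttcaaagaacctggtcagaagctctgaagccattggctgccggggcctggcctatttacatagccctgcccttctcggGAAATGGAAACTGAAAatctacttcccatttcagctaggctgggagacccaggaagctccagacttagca
Ifit3: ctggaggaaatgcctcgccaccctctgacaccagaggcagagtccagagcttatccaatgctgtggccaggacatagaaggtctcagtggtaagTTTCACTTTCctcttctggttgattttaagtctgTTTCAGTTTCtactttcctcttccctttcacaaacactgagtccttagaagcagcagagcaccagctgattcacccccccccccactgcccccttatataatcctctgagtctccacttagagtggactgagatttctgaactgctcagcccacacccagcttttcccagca
Isg15 holds 3 overlapping matches, Oas1a 2 overlapping matches and Ifit3 2 separate ones. The motif was held by 11 of the 19 type I interferon genes matched by symbol (57.9%), and by 3.99% of all 27025 genes with a promoter (3.44% of 32851 windows). It is not particular to that list, since 11 of 18 matched genes of the interferon gamma and MHC class II list held it (61.1%). Among called genes it was in 4.27% of 702 that rose and in 9.62% of 832 that fell. The letters describe the windows and do not show which factor was bound.

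Genes of the interferon gamma response and MHC class II were lower too, less uniformly. All 26 tested members had negative log2 changes, 10 fell and the median was -0.88. That count was 3 without DSS_ImP 3 or without ImP 4, 4 without DSS_ImP 4 or DSS 5, 5 without Ctrl 4 or Ctrl 5, and 19 without DSS_ImP 2. Irgm2, an immunity-related GTPase, had 101, 66 and 56.1 CPM in DSS_ImP and 172, 184 and 293 CPM in ImP (log2 change -1.54 ± 0.24, adjusted p = 0.00242). Gbp3, a guanylate-binding protein that attacks membranes around microbes, had 28.9, 21.2 and 17.3 CPM in DSS_ImP and 62.6, 46.6 and 117 CPM in ImP (log2 change -1.75 ± 0.31). Irf1, the transcription factor at the head of the response, had 180.4, 147 and 179.6 CPM in DSS_ImP and 267, 319 and 355 CPM in ImP (log2 change -0.89 ± 0.12). Each of the 3 was separate between the groups. Ciita, the regulator of MHC class II, and Cd74, its invariant chain, were not called (log2 changes -0.54 ± 0.32 and -0.75 ± 0.22, adjusted p = 0.36 and 0.0541).

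T and NK cell markers rose in 2 and fell in 5 of 26, with a median of -0.66, and 2 fell when DSS_ImP 3, ImP 1 or ImP 4 was left out, 3 without DSS_ImP 4 or DSS 5 and 10 without ImP 3. The rises were 1 without DSS_ImP 3, ImP 1 or ImP 3. Cd3e, a chain of the T cell receptor complex, had 3.41, 2.55 and 3.91 CPM in DSS_ImP and 6.97, 5.75 and 8.15 CPM in ImP (log2 change -1.08 ± 0.20, adjusted p = 0.00517). Cd8a of cytotoxic T cells fell by 0.89 on the log2 scale. Foxp3, the defining factor of regulatory T cells, had 3.76, 5.51 and 2.8 CPM in DSS_ImP and 0.532, 0.374 and 0.715 CPM in ImP and rose by 2.89 ± 0.39 (adjusted p = 0.00104). Cd3e and Foxp3, 1 gene each, thus differed in sign, and all 3 values of each group were separate for both. Cd4 had 10.6 to 17 CPM in DSS_ImP and 8.31 to 19.1 CPM in ImP (adjusted p = 0.879). Of 17 genes of B and plasma cells 0 rose and 1 fell.

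Matrix genes made up one of the longer lists and held many rises. Of 37 matrix proteases, inhibitors and matricellular proteins 28 rose and 0 fell, with a median log2 change of 1.52. Lox (ENSMUSG00000024529), which crosslinks collagen, had 34.5, 79.3 and 32.5 CPM in DSS_ImP and 5.14, 3.82 and 3.31 CPM in ImP (log2 change 3.58 ± 0.32, adjusted p = 0.000236). Thbs1, thrombospondin of platelets and fibroblasts, had 328, 756 and 448 CPM in DSS_ImP and 44.7, 51.9 and 71.3 CPM in ImP (log2 change 3.19 ± 0.31). Adamts4, which cuts proteoglycans, had 43.4, 70.4 and 28.4 CPM in DSS_ImP and 3.4, 2.0 and 2.82 CPM in ImP (log2 change 4.11 ± 0.39). These groups were separate, and DSS_ImP 3 was the highest library for all 3 genes. Mmp3 and Mmp10, stromelysins of injured gut, rose by 5.75 ± 0.70 and 5.68 ± 0.62, and the inhibitor Timp1 by 4.42 ± 0.50. Plaur, the receptor of the urokinase plasminogen activator, rose by 2.60 ± 0.28.

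Collagens rose in 14 of 21 tested and fell in 0 (median 1.12), with 9 called without DSS_ImP 2 and 8 without DSS_ImP 3 or ImP 1. Col4a1 (ENSMUSG00000031502), of basement membranes, had 562, 864 and 439 CPM in DSS_ImP and 146, 173 and 178 CPM in ImP (log2 change 1.91 ± 0.25, adjusted p = 0.00101). Its partner chain Col4a2 had 364, 557 and 270.0 CPM in DSS_ImP and 91.9, 118 and 115 CPM in ImP. Col18a1, the source of endostatin, had 291, 442 and 165 CPM in DSS_ImP and 36.2, 48 and 42.8 CPM in ImP (log2 change 2.82 ± 0.33). All 3 of these chains were separate between the groups, which a choice by small p favours. The fibrillar chains Col5a1, Col5a2 and Col3a1 rose by 1.39 ± 0.24, 1.67 ± 0.25 and 1.89 ± 0.34. Smooth muscle markers did not follow: 0 rose, 1 fell, and Acta2 was at 511 to 697 CPM in DSS_ImP and 472 to 709 CPM in ImP (adjusted p = 0.946).

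Genes of activin and BMP signalling rose, both ligands and antagonists. Of 21 genes of the TGF-beta, activin and BMP list 10 rose and 0 fell, with a median of 0.67. Grem1 (ENSMUSG00000074934), a BMP antagonist of fibroblasts and muscle, had 200.4, 549 and 244 CPM in DSS_ImP and 32.4, 29 and 40.5 CPM in ImP (log2 change 3.29 ± 0.33, adjusted p = 0.000324). Chrdl2, another BMP antagonist, had 23.3, 37.8 and 14.4 CPM in DSS_ImP and 1.26, 0.585 and 0.775 CPM in ImP (log2 change 4.85 ± 0.40). Inhba, which encodes the chain of activin A, had 18.7, 34.3 and 22.9 CPM in DSS_ImP and 2.13, 1.93 and 3.12 CPM in ImP (log2 change 3.40 ± 0.38). Fst, the activin-binding follistatin, rose by 2.02 ± 0.34, so that ligand and inhibitor moved in the same direction.

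Endothelial markers rose in 13 of 20 and fell in 0 (median 0.89). Without DSS_ImP 3 the count was 6, and it was 7 without ImP 1, ImP 3 or ImP 4. Selp (ENSMUSG00000026580), P-selectin, which captures leukocytes and is also stored in platelets, had 21.7, 31.1 and 16.3 CPM in DSS_ImP and 0.887, 0.536 and 0.82 CPM in ImP (log2 change 4.94 ± 0.41, adjusted p = 0.000213). Sele, E-selectin of activated endothelium, had 1.83, 2.72 and 3.31 CPM in DSS_ImP and 0, 0 and 0.0596 CPM in ImP (log2 change 6.85 ± 1.2). Constitutive markers moved by less: Pecam1 had 68.5, 84.1 and 47.2 CPM in DSS_ImP and 30.1, 32.7 and 36.5 CPM in ImP (log2 change 1.01 ± 0.19), and Vwf rose by 1.18 ± 0.18. Inducible selectins and constitutive markers were all separate between the groups, which a choice by small p favours.

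Among enteric glia markers a rise held without any 1 library for Gfap. Gfap, the intermediate filament of reactive glia, had 5.55, 22.3 and 10.2 CPM in DSS_ImP and 2.55, 3.07 and 2.76 CPM in ImP (log2 change 2.18 ± 0.43, adjusted p = 0.0081). In the whole list of 20 neuron and glia genes 4 rose and 1 fell, and 2 rose without DSS_ImP 3, ImP 1 or ImP 4.

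Ligands of the EGF receptor family, which drive epithelial repair, rose while a receptor fell (4 of 10 genes up, 1 down). Ereg (ENSMUSG00000029377), epiregulin, had 102, 307 and 141 CPM in DSS_ImP and 9.11, 10.3 and 6.9 CPM in ImP (log2 change 4.38 ± 0.52, adjusted p = 0.000572). Nrg1, neuregulin, which stromal cells supply, had 47, 110.1 and 37.2 CPM in DSS_ImP and 6.85, 10.8 and 9.41 CPM in ImP (log2 change 2.84 ± 0.40). Btc, betacellulin, had 13.6, 13.9 and 13.1 CPM in DSS_ImP and 6.3, 6.63 and 8.17 CPM in ImP (log2 change 0.94 ± 0.17). All 3 ligands were separate between the groups, which a choice by small p favours. DSS_ImP 3 stood out for Ereg and Nrg1 but not for Btc. Erbb2, a co-receptor, had 108, 101 and 135 CPM in DSS_ImP and 209.8, 185 and 189 CPM in ImP (log2 change -0.77 ± 0.12).

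**Figure D3:**
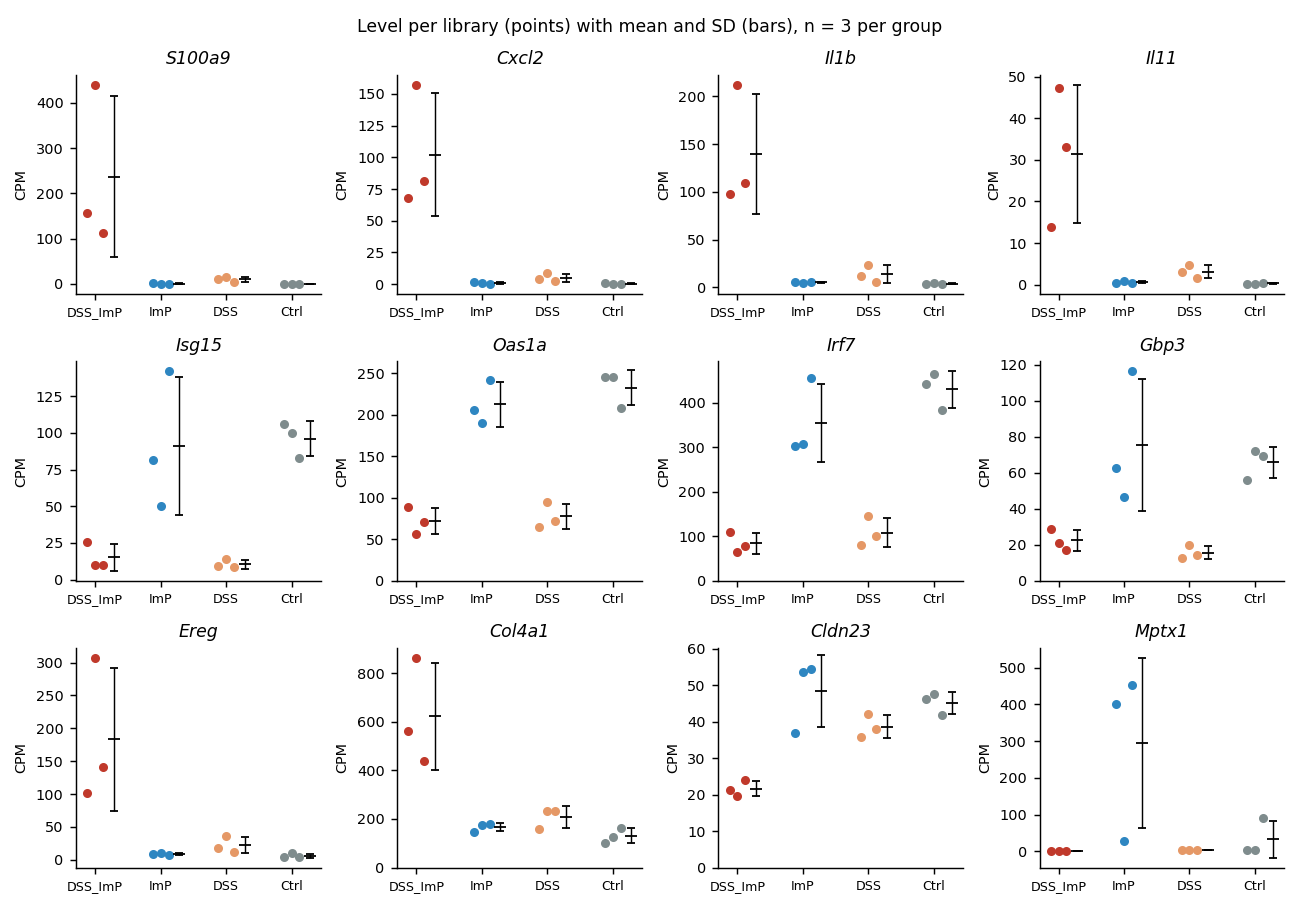
CPM of 12 genes in each of the 12 libraries (points), with the mean and SD of each group of 3 (bars). For S100a9, Cxcl2, Il1b, Il11, Ereg and Col4a1 the 3 highest libraries are those of DSS_ImP, while Isg15, Oas1a, Irf7 and Gbp3 are low in both groups that received DSS and high in both that did not.

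Absorptive colonocyte genes were lower in DSS_ImP. Of 34 tested 18 fell and 1 rose, with a median log2 change of -0.79, and 32 of the 34 had negative log2 changes. Cdhr5 (ENSMUSG00000025497), a protocadherin that spaces microvilli of the brush border, had 393, 409.7 and 487 CPM in DSS_ImP and 764, 745 and 769 CPM in ImP (log2 change -0.82 ± 0.10, adjusted p = 0.000693). Its partner Cdhr2 had 356, 338 and 468 CPM in DSS_ImP and 602, 669 and 653 CPM in ImP (log2 change -0.73 ± 0.12). Slc9a2, a sodium-proton exchanger, had 153, 107 and 183 CPM in DSS_ImP and 259, 276 and 288 CPM in ImP (log2 change -0.89 ± 0.15). The ImP libraries were close to one another for all 3 and above every DSS_ImP library. Nr3c2, the mineralocorticoid receptor, fell by 0.80 on the log2 scale, and the adhesion molecule Ceacam20 fell by 0.78. Slc26a3 and Aqp8, the chloride exchanger and a water channel, missed the threshold although each DSS_ImP value was below each ImP value (log2 changes -0.86 ± 0.26 and -1.47 ± 0.44, adjusted p = 0.0582 and 0.057). Scnn1g, a subunit of the epithelial sodium channel, was the 1 gene that rose (2.39 ± 0.64), a call lost without DSS_ImP 2, DSS_ImP 3, DSS 5, ImP 1, ImP 3 or ImP 4.

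Goblet cell genes fell in 6 of 23 and rose in 0 (median -0.54), with 10 falling when DSS_ImP 4 was left out. Klk1, a kallikrein of goblet cells, had 247, 228 and 274 CPM in DSS_ImP and 569, 663 and 787 CPM in ImP (log2 change -1.43 ± 0.14, adjusted p = 0.000306). Atoh1, the transcription factor that sets secretory fate, had 37.4, 24.5 and 41 CPM in DSS_ImP and 67.7, 59.5 and 63.2 CPM in ImP (log2 change -0.89 ± 0.19). B3gnt6 and Gcnt3, which build mucin glycans, fell by 1.20 and 0.94 on the log2 scale. Each was separate between the groups. The mucin Muc2 itself overlapped, at 5566, 7221 and 9049 CPM in DSS_ImP and 8809, 14349.7 and 16112 CPM in ImP, and its call (-0.85 ± 0.23, adjusted p = 0.038) was lost without Ctrl 4, Ctrl 5, DSS_ImP 2, DSS_ImP 3, DSS 5, ImP 3 or ImP 4.

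Of 23 junction genes 9 fell and 1 rose, but the falls were 2 without DSS_ImP 3, 3 without DSS_ImP 2 and 4 without ImP 1 or ImP 3. Cldn23, a claudin of surface epithelium, had 21.4, 19.7 and 23.9 CPM in DSS_ImP and 37, 53.6 and 54.5 CPM in ImP (log2 change -1.16 ± 0.14, adjusted p = 0.00073). Cldn1, a claudin that is scarce in normal colon, had 10.8, 9.88 and 2.75 CPM in DSS_ImP and 0.839, 1.64 and 1.45 CPM in ImP (log2 change 2.58 ± 0.47). The claudins therefore differed in direction, and both were separate between the groups. Marveld2, tricellulin, fell by 0.54 on the log2 scale. Tjp1, zonula occludens protein, had a log2 change of -0.09 ± 0.13 and was not called (adjusted p = 0.774).

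Tuft cells, the chemosensory cells of the epithelium, had 7 of 21 markers fall and 2 rise, with 4 falling without DSS_ImP 3 or ImP 4. Trpm5, their cation channel, had 2.25, 1.89 and 2.48 CPM in DSS_ImP and 8.3, 9.19 and 12.8 CPM in ImP (log2 change -2.19 ± 0.22, adjusted p = 0.000306). Sh2d6 had 1.91, 1.74 and 1.66 CPM in DSS_ImP and 4.52, 6.05 and 7.56 CPM in ImP (log2 change -1.77 ± 0.24), and Sh2d7 and Rgs13 fell by 2.08 and 1.97 on the log2 scale. All 4 were separate between the groups, which a choice by small p favours. Alox5ap, a leukotriene synthesis protein on the tuft list that leukocytes also express strongly, rose by 2.49 ± 0.40, and 1 of the list rose without DSS_ImP 2, DSS_ImP 3 or ImP 1. Enteroendocrine markers fell in 3 of 20, a count that was 0 without DSS_ImP 3 or ImP 4 and 1 without DSS 5.

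Antimicrobial products of the epithelium did not move together: of 22 tested 1 rose and 4 fell. Lcn2 (ENSMUSG00000026822), the siderophore-binding lipocalin that neutrophils also store, had 103, 274 and 91.5 CPM in DSS_ImP and 4.97, 2.19 and 2.16 CPM in ImP (log2 change 5.65 ± 0.50, adjusted p = 0.000236). Mptx1 (ENSMUSG00000026531), a mucosal pentraxin, had 0.252, 1.54 and 0.231 CPM in DSS_ImP and 401, 29.1 and 453 CPM in ImP (log2 change -8.76 ± 1.61). Among the 15 falls named for their size, this was the largest, although ImP 3 lay far below ImP 1 and ImP 4. Those 15 genes kept their call without any 1 library, had groups that do not overlap and reached 1 FPKM. In the groups without ImP, Mptx1 had 2.76, 3.62 and 4.03 CPM in DSS and 3.46, 4.42 and 90.0 CPM in Ctrl. It was not called there (log2 change -3.23 ± 1.24, adjusted p = 0.221). Ctrl 1 and Ctrl 4 thus lay near the DSS libraries and below every ImP library. The cause of the higher ImP levels was not tested. Lypd8, which binds flagella and holds bacteria away from the epithelium, had 5334, 6486 and 6046 CPM in DSS_ImP and 10923, 8730.0 and 8548 CPM in ImP (log2 change -0.66 ± 0.14). Nos2 and Duox2, which make nitric oxide and hydrogen peroxide, overlapped between the groups (adjusted p = 0.692 and 0.933).

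With all 12 libraries edgeR called no cell cycle gene and a few stem cell and Wnt target genes. Of 29 cell cycle genes edgeR called 0, with a median of 0.26 and 5 at an unadjusted p under 0.05, all upward. DESeq2 called 0, limma on FPKM 1, and edgeR without DSS 2 called 3. Mki67 was at 184 to 227 CPM in DSS_ImP and 138 to 213 CPM in ImP (adjusted p = 0.57). Of 24 stem cell and Wnt target genes 3 rose and 1 fell, with 1 rising without ImP 3. At an unadjusted p under 0.05 edgeR had 4 upward and 9 downward in that list. Bmi1, a Polycomb gene of crypt cells, had 30.3, 29.6 and 29.1 CPM in DSS_ImP and 21.7, 20.8 and 20.0 CPM in ImP (log2 change 0.51 ± 0.09, adjusted p = 0.00393). Lgr5, the marker of cycling stem cells, was below ImP in each DSS_ImP library without passing the test (4.44, 0.93 and 4.88 CPM in DSS_ImP and 7.43, 5.72 and 8.54 CPM in ImP, adjusted p = 0.177).

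Enzymes of drug and xenobiotic metabolism, which colonocytes use to clear dietary and bacterial compounds, fell in 22 of 37 tested and rose in 0, with a median log2 change of -0.90. Ces1f (ENSMUSG00000031725), a carboxylesterase, had 19.2, 19.8 and 31.6 CPM in DSS_ImP and 83, 100.4 and 79.3 CPM in ImP (log2 change -1.90 ± 0.20, adjusted p = 0.000409). Cyp3a13, a cytochrome P450, had 80.9, 58.8 and 91.7 CPM in DSS_ImP and 181, 141 and 187 CPM in ImP (log2 change -1.14 ± 0.17). The glucuronosyltransferase Ugt2b34 had 242, 192 and 256 CPM in DSS_ImP and 464, 422 and 397 CPM in ImP (log2 change -0.90 ± 0.12). In each of these enzymes the lowest ImP library was above the highest DSS_ImP library, which a choice by small p favours. The falls were 17 without ImP 1. Summed over 38 listed genes, the level was 2131 to 3167 CPM in DSS_ImP and 5122 to 5705 CPM in ImP. It was 4901 to 5352 CPM in DSS and 10043 to 11655 CPM in Ctrl, so the sum in ImP was already below that in Ctrl.

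Fatty acid oxidation, the main fuel pathway of colonocytes, was lower in fewer genes: 8 of 33 fell and 1 rose (median -0.36), with 5 falling without ImP 1 and 16 without DSS_ImP 4. Fabp2, a fatty acid carrier, had 97.5, 52.2 and 113 CPM in DSS_ImP and 202, 401 and 393 CPM in ImP (log2 change -1.92 ± 0.32, adjusted p = 0.00332). Ehhadh and Hadh, enzymes of beta oxidation, fell by 0.68 and 0.66 on the log2 scale, and Cpt1a, which admits fatty acids to mitochondria, fell by 0.54. Ppargc1a, a regulator of mitochondrial genes, had 13.4, 13.7 and 10.6 CPM in DSS_ImP and 29.8, 16.9 and 32.8 CPM in ImP (log2 change -1.07 ± 0.23). Nuclear genes of the respiratory chain all had negative log2 changes (30 of 30, median -0.35), but 1 was called, a count that was 6 without Ctrl 1 and 5 without DSS_ImP 4. Hypoxia and glycolysis genes rose in 6 of 26 and fell in 0, or rose in 3 without DSS_ImP 3, ImP 3 or ImP 4. Slc16a3, the lactate exporter, had 36.6, 44 and 46.1 CPM in DSS_ImP and 10.7, 12.9 and 11 CPM in ImP (log2 change 1.87 ± 0.14, adjusted p = 0.000117), and Hif1a, the oxygen-sensing transcription factor, rose by 1.12 ± 0.20.

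Thyroid hormone deiodinases were found at both ends of the comparison. Dio2, which activates the hormone, had 16.4, 74.8 and 19.4 CPM in DSS_ImP and 0.129, 0.341 and 0.209 CPM in ImP (log2 change 7.34 ± 0.72, adjusted p = 0.000306). Dio1, of the same enzyme family, had 7.71, 4.69 and 11.4 CPM in DSS_ImP and 51.1, 41.6 and 28.9 CPM in ImP (log2 change -2.36 ± 0.31, adjusted p = 0.00101). The groups were separate for both, as the rule that chose these genes required. Otc, a urea cycle enzyme of gut epithelium, and B3galt2, a galactosyltransferase, fell by 2.21 and 2.23 on the log2 scale. The other named falls were C1qtnf3, with 3.1, 1.34 and 6.49 CPM in DSS_ImP and 15.2, 32.4 and 31.2 CPM in ImP, and the low-level genes Krtap3-1, Odf3b and Gbp2b (log2 changes -3.42 ± 0.67, -2.58 ± 0.44 and -2.78 ± 0.39). Serpina3m, a serine protease inhibitor, had 26.3, 45.4 and 10.7 CPM in DSS_ImP and 0.194, 0.195 and 0.179 CPM in ImP (log2 change 7.17 ± 0.51).

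The contrast without ImP, DSS against Ctrl, has no library in common with DSS_ImP against ImP, but both come from 1 fit whose filter and estimate of spread rest on all 12 libraries. It called 623 genes (2.8%), of which 269 rose (1.21%) and 354 fell (1.59%). Omitting 1 library gave totals of 332 (Ctrl 1), 268 (Ctrl 4), 409 (Ctrl 5), 374 (DSS 2), 368 (DSS 3) and 285 (DSS 5). Of genes that rose with ImP 7.64% also rose without it, and of genes that fell with ImP 22.1% also fell without it. The sign of the change without ImP, called or not, was the same for 83.6% of those that rose and 86.6% of those that fell. Counted the other way, 27.9% of the rises and 68.4% of the falls of DSS against Ctrl were also called in DSS_ImP against ImP. For 75 genes both comparisons were called upward, for 242 both downward, for 0 upward with ImP and downward without, and for 1 the reverse.

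Interferon lists were lower in both comparisons. Type I interferon genes had a median of -1.62 in DSS_ImP against ImP and -1.97 in DSS against Ctrl, where 25 of 28 fell. Irf7 changed by -2.07 ± 0.25 with ImP and -1.99 ± 0.25 without, and the difference of the 2 changes was -0.08 ± 0.34. Oas1a changed by -1.56 ± 0.18 with ImP and -1.59 ± 0.18 without, a difference of 0.03 ± 0.24. The interval of 2 standard errors about each of these differences reaches from below 0 to above 0. The interferon gamma and MHC class II list had a median of -0.88 with 10 of 26 falling in DSS_ImP against ImP and of -1.46 with 15 falling in DSS against Ctrl. No test here shows the changes of either list to be alike or to differ.

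Fitted changes of neutrophil markers were larger with ImP by their median, but not clearly so by their summed level. The list had a median of 5.72 with ImP and 2.35 without (4.98 and 1.57 with genes at 0 set to their limit), with 20 and 4 called. Its summed level was 505 to 1826 CPM in DSS_ImP and 75.8 to 270 CPM in ImP, and 69.9 to 155 CPM in DSS and 14.8 to 17.8 CPM in Ctrl. Ly6g, much of that sum in ImP, had a log2 change of 0.97 ± 0.71 with ImP and 4.33 ± 0.83 without (adjusted p of the difference = 0.21). Il1b had 13.8 ± 9.18 CPM in DSS and 3.84 ± 0.237 CPM in Ctrl (SD, n = 3 each), a log2 change of 1.85 ± 0.43, and the difference from the change with ImP was 2.88 ± 0.60 (adjusted p = 0.0819). Csf3 had 0.126, 0.34 and 0.245 CPM in DSS and 0.178, 0 and 0.0853 CPM in Ctrl, and Arg1 had 4.12, 3.91 and 2.25 CPM in DSS and 3.75, 4.33 and 3.72 CPM in Ctrl. Neither was called without ImP (adjusted p = 0.439 and 0.865), and neither difference between the 2 changes passed (adjusted p = 0.0522 and 0.0506). Selp, with 3.63, 3.62 and 3.37 CPM in DSS and 0.714, 1.45 and 2.22 CPM in Ctrl, likewise missed the threshold for the difference (adjusted p = 0.0506).

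Absorptive colonocyte genes had a median of -0.79 with ImP and -0.054 without. Slc26a3 had 517, 397 and 366 CPM in DSS and 149, 159.7 and 280.0 CPM in Ctrl, and its log2 change without ImP was 1.12 ± 0.26 (adjusted p = 0.0399), opposite in sign to that with ImP (difference -1.98 ± 0.36, adjusted p = 0.0595). Ceacam20 changed by -0.78 ± 0.13 with ImP and 0.39 ± 0.13 without (adjusted p of the difference = 0.0522). Xenobiotic metabolism genes had medians of -0.90 with ImP and -0.80 without, with 22 and 16 falling.

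The test of the difference itself, DSS_ImP over ImP minus DSS over Ctrl, called 0 of 22279 genes by edgeR, with 2631 at an unadjusted p under 0.05. DESeq2 called 710 (330 upward and 380 downward) and limma on log2(FPKM + 1) called 72, so the count depends on the tool. With edgeR it was 476 without DSS_ImP 4, 48 without Ctrl 5, 30 without ImP 4, 8 without DSS 2, 1 without Ctrl 1 and 1 without DSS 3. No gene named here is therefore shown by edgeR to respond to DSS differently with ImP than without it. Counts were also simulated with the same mean for a gene in every group and the estimated spread, and 200 genes of higher counts were then changed. There edgeR recovered 24.0% of 2-fold and 78.0% of 4-fold differences of this kind, against 58.0% and 88.0% for DSS_ImP over ImP. These shares do not cover genes of low counts.

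**Figure D4:**
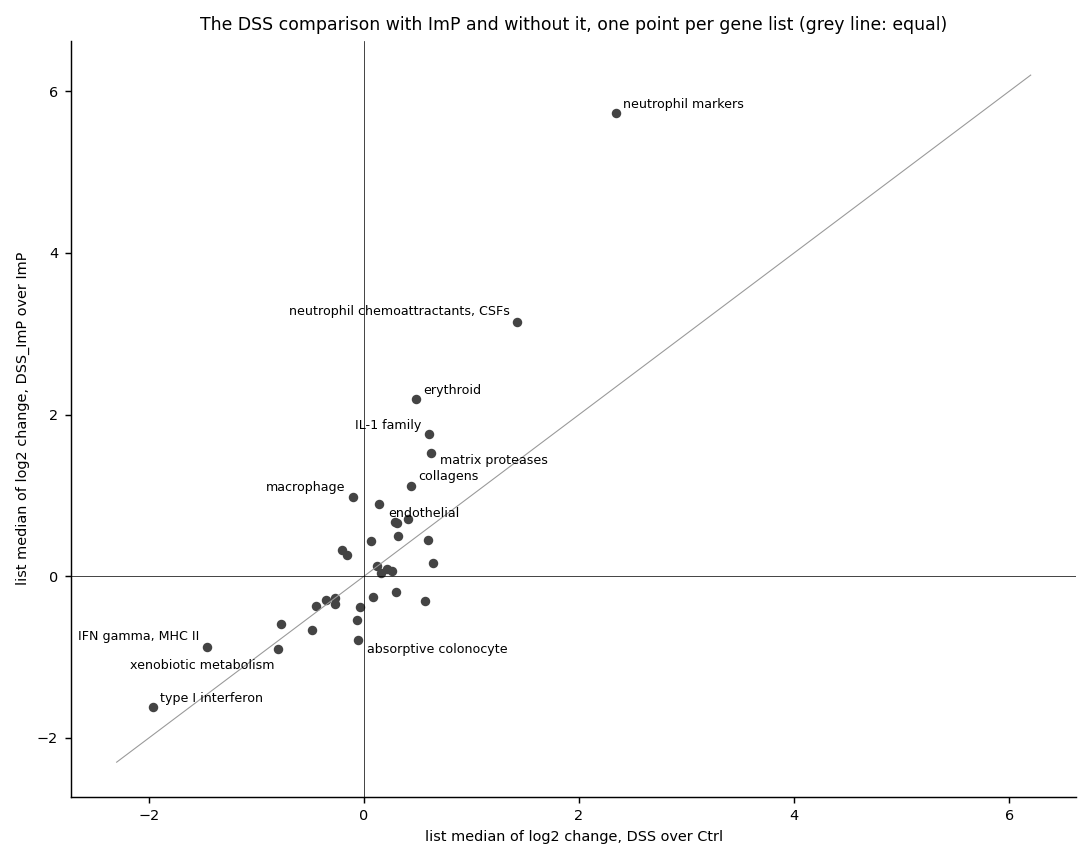
Median log2 change of each gene list in DSS_ImP over ImP (vertical axis) and in DSS over Ctrl (horizontal axis), leaving out lists of other organs, with a grey line of equality. Neutrophil markers lie at 5.72 and 2.35, above the line, and type I interferon genes at -1.62 and -1.97, close to it.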

How the data were processed

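Polyadenylated RNA of mouse colon was sequenced in 12 libraries, 3 in each of 4 groups. The deposited table holds estimated counts per gene, whole numbers made by the authors, and FPKM values scaled by the authors to transcript length and library size. The submitters' processing notes name cutadapt 1.9, HISAT2 2.0.4, StringTie 1.3.4d and the GRCm38 build, and the use of strand in counting was not given in the sources used here, so overlapping antisense genes cannot be separated. Gene positions in the table differ from that build for most identifiers (663 of 33695 shared identifiers have the same start and end), so none are printed. Small counts were most frequent at 4 (12215 values, against 7060 at 3 and 4182 at 5) and peaked again at 8, as if a read pair were worth about 4 counts, but the labels do not explain this and 10807 values are at 1. The floor of 12 counts over a group is 3 such steps. Totals were 55419380 to 67406087.

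Counts of all 12 libraries were fitted in edgeR 4.0.16 (R 4.3.3) with TMM scaling, filterByExpr, the quasi-likelihood test and Benjamini-Hochberg adjustment at 0.05. The 3 contrasts were DSS_ImP against ImP, DSS against Ctrl and their difference. A standard error is the log2 change divided by the square root of F, without sign. The common biological coefficient of variation was 0.312. In simulated counts for 22279 genes, 200 of higher counts were changed. DSS_ImP against ImP recovered 58.0% of 2-fold and 88.0% of 4-fold changes, with 3.95% false calls. The alternatives were DESeq2 1.42.0, limma 3.58.1 on FPKM values, other scalings and filters, each library left out in turn and a replicate block.

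The members and the 40 lists (907 distinct genes) were chosen with earlier results of these data known. The text names, in each direction, the 15 largest changes among genes called in all 12 leave-one-out fits, with groups that do not overlap and at least 1 FPKM in the higher group, and up to 5 members of each list with the smallest p among those called in all of these fits. Separation of the groups was thus required of the largest changes. The small p favoured it in the list members named, so it is no finding for either. Other list members are given by value. The labels do not say whether libraries came from separate animals. Some listed genes are not reported here.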

Additional observations from a re-analysis of the deposited data

How the results depend on the processing

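Named genes were chosen to keep their call when any 1 library was left out, so only the other 10 settings bear on them. Of 1329 pairs of a named gene and such a setting, 1302 kept their call and direction, 27 lost the call and 0 reversed, 23 of the 27 under the replicate block. The number of genes called for DSS_ImP against ImP was 2079 and became 3163 with DESeq2, 1153 with only the 2 groups in the fit, 688 with a replicate block and 997 to 2490 when 1 library was left out. Rises (982) became 1706 and 1612 with limma on log2(FPKM + 1) and log2(FPKM + 0.1), 621 with only the 2 groups, 345 with the replicate block and 486 to 1171 with 1 library left out. Falls (1097) became 1750 with DESeq2, 702 and 716 with limma on the same scales, 532 with only the 2 groups, 343 with the replicate block and 511 to 1319 with 1 library left out. The difference between the DSS effects with and without ImP called 0 genes and became 26 with upper-quartile scaling, 710 with DESeq2, 46 with a filter of 1 CPM in 6 libraries, 72 and 17 with limma, 18 with counts divided by 4, 2 with the replicate block and 0 to 476 with 1 library left out. DSS against Ctrl called 623 and became 1497 with DESeq2, 10 with the replicate block and 268 to 779 with 1 library left out. Same-numbered libraries of DSS_ImP and ImP had correlations of -0.098 and -0.11 in their deviations from the group means, so the numbers were not taken as pairs. The neutrophil list had 10 rises, not 20, under the filter of 1 CPM in 6 libraries. Of the 2079 calls over all genes, 1942 were still tested under that filter and 1941 of them kept their call. Most of the missing rises were therefore genes that left the test. Where 1 gene of a list was called in a direction, most such calls were lost when some 1 library was left out. The cause of the other shifts was not tested. Since 58.0% of simulated 2-fold changes were recovered in genes of higher counts, a missing call does not show that a gene was equal in the groups.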

Other observations

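A few genes of MHC class I presentation, chosen after their values were seen and not counted against a list, fell in DSS_ImP colon. H2-T23, a nonclassical class I molecule, had 228, 176 and 187 CPM in DSS_ImP and 429, 404 and 543 CPM in ImP (log2 change -1.22 ± 0.13, adjusted p = 0.000391 by edgeR). B2m, the shared light chain, had 1032, 936 and 941 CPM in DSS_ImP and 1569.7, 1853 and 2319 CPM in ImP (log2 change -0.98 ± 0.15). The peptide transporter Tap1 and the immunoproteasome subunits Psmb8 and Psmb9 fell as well, with log2 changes of -1.21 ± 0.22, -0.90 ± 0.16 and -1.07 ± 0.18. Each of the 5 was separate between the groups and kept its call without any 1 library.

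Several further genes outside the lists, also chosen after their values were seen, stood apart. Cemip, which degrades hyaluronan, had 24.8, 112 and 52.3 CPM in DSS_ImP and 1.6, 0.992 and 1.13 CPM in ImP (log2 change 5.67 ± 0.56). Acod1, which makes itaconate in activated myeloid cells, had 48.7, 139 and 31.3 CPM in DSS_ImP and 2.79, 3.35 and 1.79 CPM in ImP (log2 change 4.79 ± 0.59). Hmox1, heme oxygenase, rose by 2.33 ± 0.25. Vdr, the vitamin D receptor, had 206, 159 and 246 CPM in DSS_ImP and 471, 450.0 and 466 CPM in ImP (log2 change -1.18 ± 0.14). Rspo3, a Wnt amplifier from stroma, rose by 2.25 ± 0.32, and Gli1, a target of hedgehog signalling in stroma, fell by 1.33 on the log2 scale. Of the clock genes, Per2 and Cry2 changed by -0.57 ± 0.08 and -0.60 ± 0.08, while Arntl and Per1 were not called (adjusted p = 0.386 and 0.0817 by edgeR). The labels do not give the time of day of collection.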
